A study of Mus musculus with 8 samples.

Results

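The genes described here are 8 transcription factors of retinal progenitor cells, Sox2, Lhx2, Rax, Six3, Six6, Hes5, Neurog2 and Atoh7, out of 20018 gene symbols on the array. They were taken by name, and every probe whose RefSeq transcript carried one of these symbols was kept. Each gene had 1 such probe, and all 8 probes were well above background on all 8 arrays and were tested. The samples were whole retinas of 2-week-old C57BL/6 mice, 4 from Lpcat1 wildtype (WT) mice and 4 from Lpcat1 knockout (KO) mice. Lpcat1 encodes an enzyme that makes phosphatidylcholine with saturated fatty acids. According to the study's methods, the knockout line was made on C57BL6/N, whose Crb1 rd8 mutation itself damages the retina, and was crossed to C57BL6/J, and mice homozygous for rd8 were not used. The study describes the knockout as global, not limited to a cell type. The labels do not say whether each retina came from a separate animal, so the p-values measure the spread between these samples only.

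The vertebrate eye is set up by a group of homeobox factors called the eye-field factors. Rax, Six3, Six6 and Lhx2 belong to this group, and with the HMG-box factor Sox2 they keep retinal progenitors dividing and able to form every retinal cell type. Basic helix-loop-helix (bHLH) factors then time the exit from this state. Hes5 is a repressor switched on by Notch signalling that holds back differentiation, whereas Neurog2 and Atoh7 drive progenitors towards neurons, Atoh7 above all towards ganglion cells. The mouse retina has all but finished making neurons by 2 weeks, and several of these factors then persist in mature cells. Sox2, Lhx2, Rax and Hes5 are known in Mueller glia, Rax also in photoreceptors, and Sox2, Six3 and Six6 in inner retinal neurons.

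The Hes5, Sox2 and Atoh7 promoters are printed here because Hes5 and Sox2 were the members whose genotypes did not overlap, and Atoh7 is the bHLH member with the most E-boxes. Each sequence is the 250 bases before the transcription start, from RefSeq on mouse build GRCm38.p6, plus strand. Capitals mark RBPJ letters (TGGGAA, or TTCCCA on the other strand) in Hes5 and E-box letters (CANNTG) in Atoh7. Sox2 has no capitals because neither motif was in its window.
Hes5, chr4:154960673-154960922: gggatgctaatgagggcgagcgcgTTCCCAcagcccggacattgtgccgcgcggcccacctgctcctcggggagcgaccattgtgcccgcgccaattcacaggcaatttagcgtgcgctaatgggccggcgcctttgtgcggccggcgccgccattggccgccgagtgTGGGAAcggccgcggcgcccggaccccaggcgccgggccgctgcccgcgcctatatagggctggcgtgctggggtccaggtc
Sox2, chr3:34649745-34649994: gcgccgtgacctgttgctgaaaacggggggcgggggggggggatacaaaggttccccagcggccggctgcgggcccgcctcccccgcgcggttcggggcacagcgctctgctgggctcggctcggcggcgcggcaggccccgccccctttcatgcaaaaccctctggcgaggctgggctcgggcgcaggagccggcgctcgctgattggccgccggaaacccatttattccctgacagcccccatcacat
Atoh7, chr10:63099535-63099784: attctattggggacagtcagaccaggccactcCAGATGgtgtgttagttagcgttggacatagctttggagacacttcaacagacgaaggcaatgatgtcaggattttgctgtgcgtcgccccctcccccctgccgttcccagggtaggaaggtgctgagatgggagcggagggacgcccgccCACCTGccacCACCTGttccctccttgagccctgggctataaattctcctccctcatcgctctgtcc
RBPJ is the DNA-binding partner of activated Notch, and its letters stood 226 and 82 bases before the Hes5 start. The E-box is the letter pattern that bHLH activators bind, and it occurred at 218, 67 and 57 bases before the Atoh7 start, while Hes5 had 1, at 194 bases. Atoh7 also had 1 set of RBPJ letters, at 114 bases. On both strands, RBPJ letters were found in 21.6% of all 32851 promoter windows of this length and E-boxes in 66.2%. None of the matches in these 3 windows overlapped another. Hes5 also held SOX letters (CATTGT, or ACAATG) at 211 and 172 bases, which occurred in 11% of the windows. A window was found for 7 of the 8 genes. Of the other members, Lhx2 had RBPJ letters in each of its 2 windows, Six6 had 1 N-box (CACNAG, or CTNGTG, in 36.7% of windows), and Six3 and Neurog2 had none of these. The homeodomain letters TAATTA, found in 4.84% of windows, were in no member's window. These matches describe letters only.

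Levels are log2 signals relative to the 75th percentile of each array, so a level is compared between arrays for 1 probe and never between probes. A probe was called when its adjusted p was under 0.05 (limma, Benjamini-Hochberg over all 33972 tested probes) and its fold change was over 1.2. Of all tested probes, 992 (2.92%) were called, 470 higher (1.38%) and 522 lower (1.54%) in KO. When arrays were scaled on the probes detected on all of them, the split was 563 higher and 372 lower. The Lpcat1 probe stood at 72.5% of WT in KO (difference -0.46, SE 0.04, limma adjusted p = 0.00360), and its 4 KO levels, between -0.92 and -0.78, lay below the 4 WT levels, between -0.43 and -0.38. Whether this probe lies in the deleted part of Lpcat1 is not given in the sources used here. All 8 arrays were on 1 slide with the WT arrays in one row and the KO arrays in the other, so row and genotype cannot be told apart. The array 75th percentile was 638 to 738 signal units, and 59.5% to 65.3% of probes were well above background.

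None of the 8 factors passed the call limits, against 2.92% of all probes. In whole retina, fewer cells of a type and less RNA per cell cannot be told apart. In 2 of the 8, Sox2 and Hes5, the KO and WT levels did not overlap, which was the case for 17.5% of all tested probes. The same 2 had an unadjusted limma p under 0.05, as did 8074 of all tested probes. Differences, KO minus WT, ran from -0.38 for Hes5 to 0.14 for Sox2, 5 of them positive and 3 negative, where 62.0% of all tested probes were negative, while the 5th to 95th percentile of all tested probes spanned -0.29 to 0.22. For 7 of the 8 the 95% interval of the difference lay wholly within 1.2-fold in both directions, and Hes5 was the exception. Such an interval was found for 51.5% of all tested probes.

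**Figure D1:**
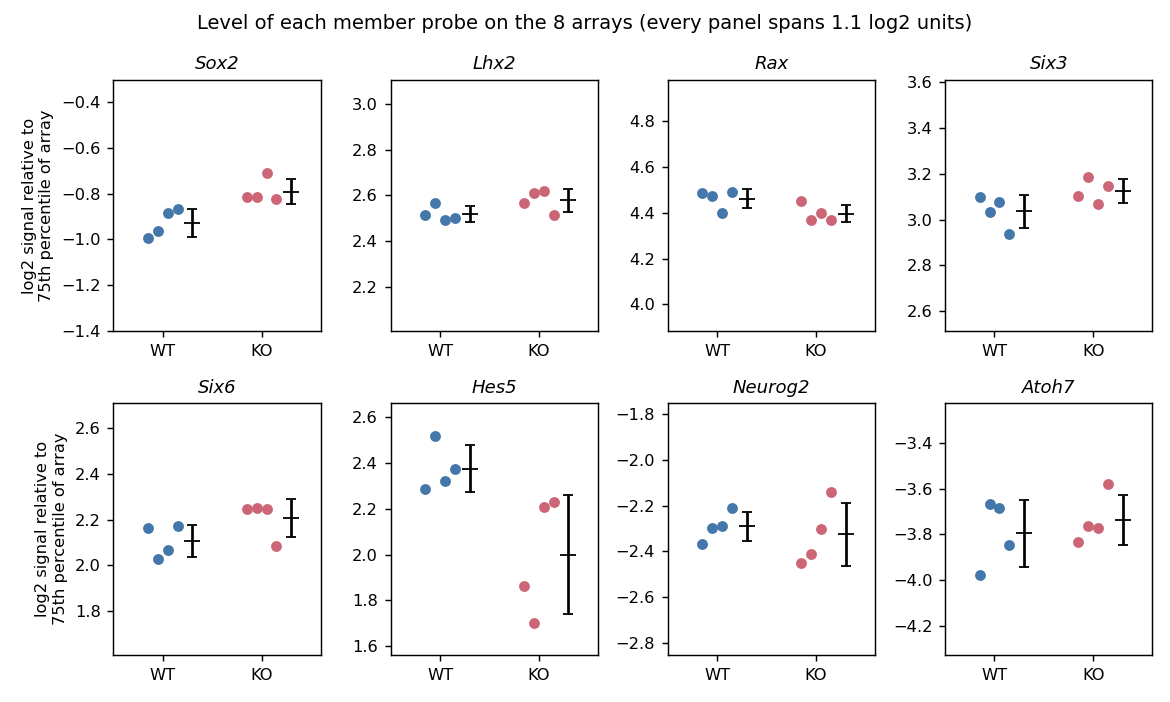
Level of each of the 8 probes (log2 signal relative to the array's 75th percentile) on the 4 WT (blue) and 4 KO (red) arrays. Each point is 1 retina, bars show mean and SD, and every panel spans the same range in log2 units. Hes5 ran lower in KO, at 1.70 to 2.23, than in WT, at 2.29 to 2.52, and its KO values were the most spread.

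Sox2 is grouped here with the 4 eye-field homeobox factors because it acts with them in progenitors, and it had the largest difference of these 5 genes. It measured -1.00, -0.96, -0.89 and -0.87 in the 4 WT retinas and -0.82, -0.81, -0.71 and -0.83 in the 4 KO retinas. Every KO level was above every WT level. The difference was 0.14 (SE 0.05, 95% interval 0.03 to 0.24), 110% of WT, with limma p = 0.0180, adjusted p = 0.121 and an exact two-sided permutation p of 0.0286. With 4 against 4 arrays, 0.0286 is the smallest exact p possible, and it was reached by every probe without overlap.

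Lhx2, a LIM homeobox factor of the eye field, measured 2.51, 2.57, 2.49 and 2.50 in WT and 2.57, 2.61, 2.62 and 2.51 in KO. The genotypes overlapped, and the difference was 0.06 (SE 0.04, 95% interval -0.03 to 0.15, limma adjusted p = 0.406). Six3, a homeobox factor of the eye field and forebrain, measured 3.10, 3.03, 3.08 and 2.94 in WT and 3.10, 3.19, 3.07 and 3.15 in KO. Its levels overlapped too, with a difference of 0.09 (SE 0.05, 95% interval -0.02 to 0.20, limma adjusted p = 0.315). Six6, the close relative of Six3, measured 2.16, 2.03, 2.07 and 2.17 in WT and 2.25, 2.25, 2.24 and 2.08 in KO. KO retinas 1 to 3 lay above every WT retina while the fourth lay among them, and the difference was 0.10 (SE 0.06, 95% interval -0.03 to 0.23, limma adjusted p = 0.324).

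Rax, the homeobox factor that starts the eye field, was the one gene of this group with a lower mean in KO. It measured 4.49, 4.48, 4.40 and 4.49 in WT and 4.45, 4.37, 4.40 and 4.37 in KO. Only WT retina 3 lay within the range of the KO retinas, and the difference was -0.07 (SE 0.04, 95% interval -0.16 to 0.03, limma adjusted p = 0.358, exact permutation p = 0.0571).

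Hes5, the Notch effector whose promoter is shown above, differed most. It measured 2.29, 2.52, 2.32 and 2.37 in WT and 1.86, 1.70, 2.21 and 2.23 in KO. All 4 KO retinas were below all 4 WT retinas. KO retinas 3 and 4 stood just under the lowest WT retina and KO retinas 1 and 2 further away. The KO mean was 77.1% of WT, a difference of -0.38 (SE 0.12, 95% interval -0.66 to -0.09), with limma p = 0.0156, adjusted p = 0.112 and an exact permutation p of 0.0286. By absolute difference this probe ranked 1415 of 33972. Its SD was 0.26 in KO and 0.10 in WT, beside a median within-genotype SD of 0.10 over all tested probes. Without KO replicate 2 the difference was -0.28, and it was not called in any fit.

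Neurog2, the proneural factor of progenitors leaving the cycle, measured -2.37, -2.30, -2.29 and -2.21 in WT and -2.45, -2.41, -2.30 and -2.14 in KO. The KO levels lay on both sides of the WT levels, and the difference was -0.04 (SE 0.07, 95% interval -0.20 to 0.13, limma adjusted p = 0.807). Atoh7, needed for ganglion cell formation, measured -3.98, -3.67, -3.69 and -3.85 in WT and -3.83, -3.76, -3.77 and -3.58 in KO. The genotypes overlapped with a difference of 0.06 (SE 0.08, 95% interval -0.14 to 0.25, limma adjusted p = 0.719). Atoh7 was dim, at 42.5 to 56.6 signal units, where the lowest signal well above background on any array was 17.8 to 28.1. KO retinas 1 and 2 held the lowest 2 levels of Hes5 and of Neurog2, and across the 8 arrays these levels had r = 0.63 (0.75 after each genotype's mean was taken off). The arrays are shared between the genes, so this is a description.

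**Figure D2:**
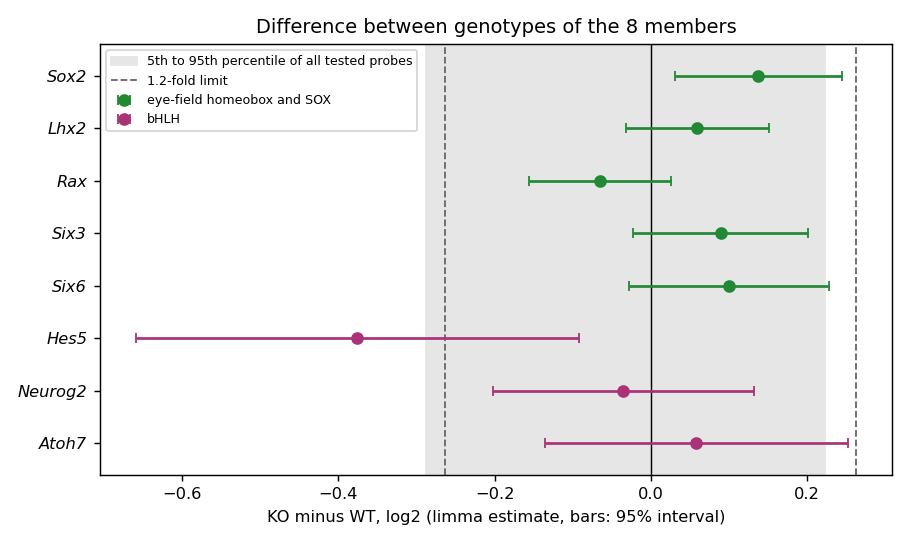
Difference between genotypes (KO minus WT, log2, x axis) for the 8 factors, eye-field homeobox factors and Sox2 in green and bHLH in purple, with 95% intervals from limma. Grey marks the 5th to 95th percentile of all tested probes and dashed lines the 1.2-fold limit, and only the Hes5 interval crosses a dashed line.

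Set side by side, the 5 eye-field homeobox and SOX members had a median difference of 0.09 (4 higher and 1 lower, range -0.07 to 0.14) and the 3 bHLH members a median of -0.04 (1 higher and 2 lower, range -0.38 to 0.06). Over all tested probes the median was -0.04. The mean level of the eye-field homeobox and SOX members, taken from the WT mean, was -0.01 to 0.01 in WT retinas and 0.02 to 0.08 in KO retinas. For the bHLH members the same mean was -0.12 to 0.09 in WT and -0.25 to 0.07 in KO. The means of the first group did not overlap between genotypes, but KO retina 4 at 0.019 lay just above WT retina 1 at 0.014. The SD of this mean within a genotype was 0.024, and how often such means of other probes fail to overlap was not read. The bHLH means overlapped. KO retinas 1, 2 and 3 were below the bHLH WT mean, at -0.24, -0.25 and -0.05, and KO retina 4 was above it, at 0.07. This shift came mostly from 1 gene, Hes5 (-0.38), beside -0.04 for Neurog2 and 0.06 for Atoh7. The difference between these groups was not tested.

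The genes around the members were read by 1 probe each, the brightest, of which 519 of 14939 (3.47%) were called over the whole array with a median difference of -0.02, and 57.8% of these genes were lower in KO. Of 38 tested genes among the other eye-field and progenitor factors, 4 were called, 3 lower and 1 higher, with a median of -0.03. Pax6, the central eye regulator, measured 0.10 higher on its brighter probe and 0.10 lower on the other, and neither was called. Sox4, a SOX factor of differentiating neurons, fell by 0.28 (SE 0.06, limma adjusted p = 0.0361), and its other probe by 0.30. Six2, a relative of Six3 and Six6, fell by 0.28 (SE 0.05, adjusted p = 0.0250), and Sox3, a relative of Sox2, fell by 0.43 (SE 0.09, adjusted p = 0.0327). Mitf, the regulator of pigment cells, rose by 0.31 (SE 0.05, adjusted p = 0.0178), with a difference of 0.20 on its other probe, which was not called. With any 1 array left out, Sox4 and Sox3 stayed called only without KO replicate 1. Six2 stayed called without WT replicate 3 or KO replicate 1, and Mitf in all but the fits without WT replicate 4, KO replicate 2 or KO replicate 4. The highest adjusted p in those fits was 0.0976 for Sox4, 0.0869 for Sox3, 0.0726 for Six2 and 0.0574 for Mitf. Sox3 was dim, at 39.6 to 67.0 signal units, and had a difference of -0.12 after normexp background correction, where it was not called. Over 12 other settings, Sox4 was called in 6, Six2 in 6, Sox3 in 8 and Mitf in 11. With the replicate number as a block, Mitf stayed called (limma adjusted p = 0.0491). Sox4 (0.0688), Six2 (0.0580) and Sox3 (0.0685) were not called in that fit.

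The Notch pathway acts by ligands on neighbouring cells, receptors and RBPJ, and its output includes Hes5. All 27 listed genes were tested, 11 higher and 16 lower, with 1 called and a median of -0.04. The ligands Dll1, Dll3, Dll4 and Jag1 differed by 0.01, -0.04, -0.04 and 0.06, and the receptor Notch1 by -0.26 (SE 0.16, limma adjusted p = 0.361). Lfng, a Fringe enzyme that modifies Notch, rose by 0.51 (SE 0.08, adjusted p = 0.0195), with levels of -2.13, -1.94, -1.85 and -2.03 in WT and -1.68, -1.43, -1.40 and -1.41 in KO. All 4 KO retinas were above all 4 WT retinas. Leaving out WT replicate 2 or 4 or KO replicate 2, 3 or 4 ended the Lfng call (adjusted p up to 0.0619). So did leaving out the filter on dim probes (adjusted p = 0.0680), and Lfng was called in the other 11 of 12 settings. Mfng, a second Fringe enzyme named here after its values were seen, was lower by 0.21 on its brighter probe (adjusted p = 0.0270, under the fold limit) and by 0.14 on the other. Rfng, the remaining Fringe enzyme, differed by -0.06 on each of its probes (adjusted p = 0.659 and 0.407) and was not called. Other direct Notch targets, likewise named after their values were seen, were not called. Nrarp, a feedback inhibitor, differed by -0.34 (SE 0.11, adjusted p = 0.106), Heyl by -0.27 (SE 0.15), Hey2 by -0.10, Hey1 by 0.05 and Hes1, the other main Notch repressor of retinal progenitors, by 0.05 (SE 0.10).

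Of 16 tested genes among other neurogenic bHLH factors and their partners, 1 was called and the median was -0.04. Insm1, a zinc finger factor of late progenitors and new neurons, fell by 0.52 (SE 0.07, limma adjusted p = 0.0105). Its levels were 4.32, 4.29, 4.30 and 4.43 in WT and 3.79, 3.66, 3.97 and 3.82 in KO, and it stayed called without any 1 array. The neurogenic factor Neurod1 differed by -0.04 and was not called. Among 10 tested ganglion cell factors downstream of Atoh7 none was called, 5 were higher and 5 lower, and the median was -0.01.

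**Figure D3:**
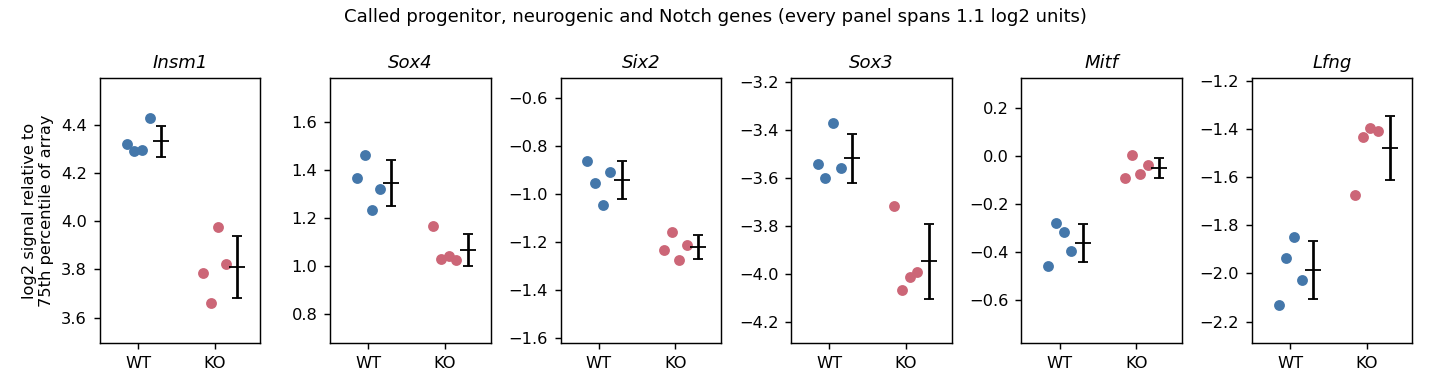
Levels (log2 signal relative to the array's 75th percentile) of 6 called genes from the progenitor, neurogenic and Notch lists on the 4 WT (blue) and 4 KO (red) arrays. Points are retinas, and bars show mean and SD. Insm1, Sox4, Six2 and Sox3 sit lower in KO and Mitf and Lfng higher, with no overlap in any panel.

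Progenitors divide, so markers of dividing cells were read beside the members. Of 16 tested, 12 were lower and 4 higher, with a median of -0.09, beside 57.8% lower over all tested genes. Mki67, the proliferation antigen, fell by 0.45 (SE 0.08, limma adjusted p = 0.0240, with 0.51 on its other probe), and Birc5, a mitotic survival protein, fell by 0.37 (SE 0.08, adjusted p = 0.0462). Both stayed called only when KO replicate 1 was left out, with an adjusted p of up to 0.0704 and 0.108 in the other such fits. Over 12 other settings, Mki67 was called in 9 and Birc5 in 5, and Mki67 differed by -0.26 after normexp background correction. Neither was called with the replicate number as a block (limma adjusted p = 0.0616 for Mki67 and 0.0831 for Birc5). Top2a, Cdk1, Bub1 and Aurkb did not pass the background filter.

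Markers of the cell types that hold these factors in the mature retina were read in the same way. All listed markers of rods (12), bipolar cells (12), amacrine cells (13) and Mueller glia (14) passed the background filter. The summed level of a list is the log2 of its mean signal relative to the array's 75th percentile, so its brightest genes weigh most. Of 14 Mueller glia markers, 10 were higher in KO and 4 of these were called, namely Apoe, Clu, Kcnj10 and Prdx6, at 0.29 to 0.31, with a list median of 0.16. Without any 1 array Apoe stayed called, Kcnj10 in all fits but that without KO replicate 2, Clu in all but those without WT replicate 2 or KO replicate 2, and Prdx6 only without KO replicate 1 (adjusted p up to 0.0934). With no filter on dim probes none of the 4 was called (adjusted p 0.0534 to 0.0996). Clu and Kcnj10 also lost the call with the replicate block (adjusted p = 0.0571 for each) and Prdx6 with a median shift (adjusted p = 0.0866). The summed Mueller level was 5.05 to 5.11 in WT and 5.26 to 5.29 in KO. Clu (mean level 6.73 in WT and 7.04 in KO) and Apoe (6.49 and 6.78) weigh heavily in it. The summed Mueller level is therefore not separate from their calls. Of 12 rod markers 11 were lower and 4 were called (summed level 7.44 to 7.50 in WT and 7.19 to 7.31 in KO), and of 13 amacrine markers 12 were higher with none called (3.69 to 3.71 in WT and 3.80 to 3.83 in KO). Of 10 cone markers 9 were higher and 2 were called (4.40 to 4.43 in WT and 4.58 to 4.64 in KO). Of 12 bipolar markers 8 were higher and 4 lower with none called (4.88 to 5.01 in WT, with every KO retina inside that range). Of 6 horizontal cell markers 3 were higher and 3 lower with none called. Their median was 0.04, although their summed level was lower in KO (3.27 to 3.29 in WT and 3.01 to 3.10 in KO). Of 12 ganglion cell markers 8 were higher with none called (3.98 to 4.00 in WT and 4.03 to 4.08 in KO). Among 11 microglia markers all were higher and 5 were called, while their summed level overlapped between genotypes (1.47 to 1.80 in WT and 1.62 to 1.87 in KO). Of 6 astrocyte markers 4 were higher and 2 lower with none called and a median of 0.17, and the summed level did not overlap (0.30 to 0.52 in WT and 0.58 to 0.62 in KO). Apoe, Clu and Kcnj10 are known in astrocytes as well as in Mueller glia. Of 9 lens markers 6 passed the background filter, 3 were higher and 3 lower, and the summed level overlapped, at -2.59 to -2.39 in WT and -2.60 to -2.29 in KO. Pigment epithelium markers passed the filter for 9 of 10 genes, with 7 higher, 2 lower and none called. Their summed level overlapped, at 1.28 to 1.62 in WT and 1.28 to 1.64 in KO. Ciliary margin markers passed for 7 of 8 genes, with 4 higher, 3 lower and none called. Their summed level overlapped too, at -1.24 to -1.06 in WT and -1.18 to -1.02 in KO. The part of any of these cell types in the member differences was not tested.

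**Figure D4:**
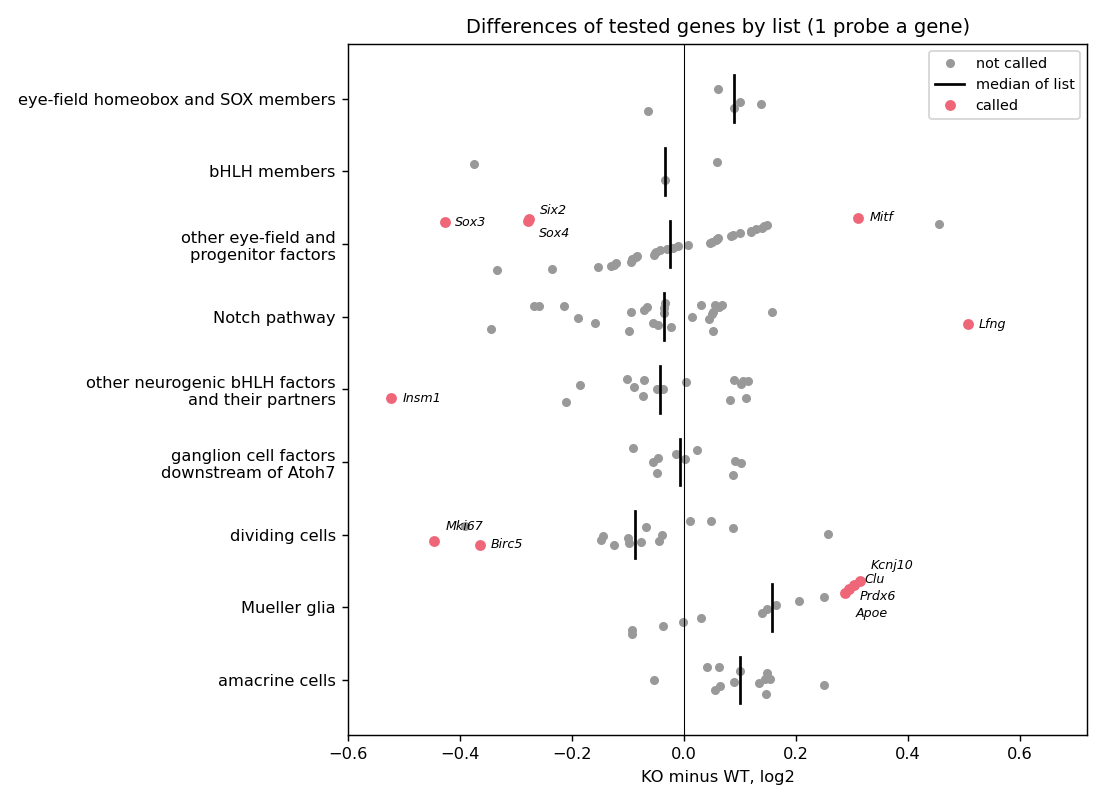
Difference between genotypes (KO minus WT, log2, x axis) for every tested gene of 9 lists, with called genes in red and named and the list median as a black line. The members lie between -0.38 (Hes5) and 0.14 (Sox2) and none is red.

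Genes whose levels followed a member most closely over the 8 arrays were read by Pearson r, out of 14939 genes, as a description. For Hes5 these were Meak7 (r = 0.97) and Gm5779 (r = 0.97), and for Sox2 they were Grk5 (r = 0.98) and Rab21 (r = 0.98). Rax went with Mbtps1 (r = 0.99) and Uhrf1 (r = 0.99), Lhx2 with Cyp2j6 (r = 0.98) and Afg3l1 (r = 0.96), and Six3 with Cd14 (r = 0.97) and Srgap1 (r = 0.96). Six6 went with Lrrcc1 (r = 0.99) and Trib3 (r = 0.98), Neurog2 with Cct4 (r = 0.98) and Prpf6 (r = 0.98), and Atoh7 with Psme3ip1 (r = 0.96). No member was the closest partner of another.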

How the data were processed

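Total RNA of the whole retina was labelled with Cy3 and hybridised by the authors to Agilent SurePrint G3 Mouse GE 8x60K arrays. The deposited files hold spot intensity from Agilent Feature Extraction 10.7.1.1, background-subtracted and detrended within each array. The authors' deposited log2 values, scaled by a 75th percentile shift, were used as an alternative and differed from those here by 1 constant per array. Here, the log2 of the processed intensity was set relative to the 75th percentile of all spots that are not controls on that array, with flagged spots left out and repeated spots averaged. Probes well above background on all 4 arrays of a genotype were tested with limma 3.58.1 in R 4.3.3, with 4 KO against 4 WT arrays and no covariate. Calls needed an adjusted p under 0.05 and a fold over 1.2, as in the methods of the study. No array had a saturated spot. The number of arrays limits the precision. Symbols came from RefSeq transcripts of each probe, on an mm9 design, and promoters from RefSeq tables. The members, gene lists and named gene rule (members, up to 5 called genes a list, the 2 closest genes by r, and defining markers) were chosen with earlier results of these data known. Alternatives were the scaling, background correction (normexp, offset 50, on median signals because mean signals were not in the files), dim-probe filter, test, fold limit, replicate block and each array left out. Scripts were tested on simulated data. A few genes that these rules name are not reported here.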

Additional observations from a re-analysis of the deposited data

Results flagged for a closer look

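In groups of 4 arrays, a level was flagged when it stood far from the other 3, measured by its gap over the group's range. This was read for 21 genes in 42 groups, and 5 were flagged. Chance flags about 1 in 20 groups. Sox2 in KO replicate 3 was at -0.71, above the other KO retinas. Rax in WT replicate 3 was at 4.40, below the other WT retinas. Six6 in KO replicate 4 was at 2.08, below the other KO retinas. Outside the members, Sox4 in KO replicate 1 was at 1.17, above the other KO retinas, and Lfng in KO replicate 1 was at -1.68, below them.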

How the results depend on the processing

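No member was called under any alternative or with any 1 array left out. Hes5 ranged from -0.43 to -0.35 over the alternatives (adjusted p 0.0688 to 0.212) and from -0.45 to -0.28 with 1 array left out (adjusted p up to 0.241, without WT replicate 2), and Sox2 from 0.09 to 0.16 (adjusted p 0.0790 to 0.297). Without WT replicate 1 the Atoh7 difference turned to -0.0030 (up to 0.10 without WT replicate 2), and without KO replicate 1 that of Neurog2 turned to 0.0070. The median of the eye-field homeobox and SOX members was 0.13 with quantile normalization and 0.056 to 0.11 with 1 array left out, and the bHLH median -0.10 to 0.0070 then. Probes called over the array, 992 above, numbered 246 with no filter on dim probes, 138 at a fold over 1.5, and 369 (without WT replicate 2) to 1183 (without KO replicate 1) with 1 array left out. Genes called in the pathway lists, 8 above, numbered 5 after a median shift, 5 after scaling on detected probes, 4 after normexp, 1 with no filter on dim probes, 0 at a fold over 1.5, and 1 to 11 with 1 array left out. The cause of these shifts was not tested, beyond the larger number of probes tested without a filter and the stricter fold limit. The labels do not say that replicate numbers pair the samples. They were not treated as paired because only 2 of 4 same-numbered pairs had a correlation of deviations over 0.1, although 7 of 8 arrays correlated best with their own number, a hint of pairing from the data and not the design. With the replicate block, 395 probes and 3 pathway genes were called, and no member.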
